A study of Mus musculus with 8 samples.

Results

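The genes described here are 9 members of the Notch pathway: the target genes Hes1, Hey1, Heyl and Nrarp, the ligand genes Jag1 and Dll1, and the receptor genes Notch1, Notch2 and Notch3. They were chosen by symbol, as every probe set of the array whose platform annotation gives 1 gene symbol equal to 1 of these names. The choice took 17 probe sets of the 45037 tested and 9 of the 18193 genes that such probe sets name. Hes1, Hey1 and Dll1 had 1 probe set each, Nrarp, Notch1, Notch2 and Notch3 had 2 each, and Heyl and Jag1 had 3 each.

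The samples were 7438 cells, a mouse mammary cell line in which GFP-tagged glucocorticoid receptor (GFP-GR) and Cherry-tagged estrogen receptor (Cherry-ER) are made from a promoter that tetracycline holds silent. Every group was kept for 48 hours in serum stripped of steroids with charcoal and for the last 24 hours without tetracycline, so the controls made both tagged receptors too. There were 4 groups of 2 arrays: untreated cells, cells that received dexamethasone, a synthetic glucocorticoid, at 100 nM (Dex), cells that received estradiol at 100 nM (E2), and cells that received both, each at 100 nM (Dex+E2), with RNA taken after 2 hours of hormone. The design asks how each of these 2 hormones acts on transcription alone and beside the other. The receptors are tagged, made from a transgene and studied in 1 line, and no label gives the replicates as separate cultures, so the p-values reflect just the scatter among these arrays, which could be technical. For 1 E2 array (replicate 2) and 1 Dex+E2 array (replicate 1) the descriptions speak of a chromatin immunoprecipitation, but titles and treatment labels assign both to the groups used here. In RNA of whole cultures, fewer cells with a transcript and less transcript per cell cannot be told apart.

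Notch receptors are cleaved when a Jagged or Delta-like ligand on a neighbouring cell binds them, and the freed intracellular domain enters the nucleus, where it joins the DNA-binding protein RBPJ and Mastermind coactivators. The complex switches on genes such as Hes1, Hey1, Heyl and Nrarp. Hes and Hey proteins are transcriptional repressors with short-lived messages, and Hes1 also represses its own promoter. In the mammary gland Notch signalling is known for its part in luminal fate and in tumours driven by activated receptors.

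RefSeq promoter windows (mouse build GRCm38.p6) run from 250 bases before to 50 bases after a gene's start. They were matched by symbol for 6 of the 9 members, with 7 windows in all, for Nrarp, Notch1, Notch2, Notch3, Jag1 and Dll1. Hes1, Hey1 and Heyl had no window, so Nrarp was the only target gene searched, and the counts below say nothing about Hes1. Both strands were searched for the core bound by RBPJ (TGGGAA), boxes bound by Hes proteins (CACNAG, the N box, and CACGCG, the class C box), the glucocorticoid receptor hexamer (AGAACA), the pair of such hexamers facing each other across 3 bases (AGAACA and TGTTCT), and the estrogen receptor palindrome (GGTCA and TGACC across 3 bases). The RBPJ core was in 0 of the 7 members' windows, against 25.6% of the 32851 windows in the table, and the hexamer in 1, against 19.0%. The N box was in 5 of the 7, against 42.5% of all windows, and the class C box in 3, against 9.27%. The spaced pair of hexamers and the estrogen receptor palindrome were in 0 of the 7; 3 and 23 windows of the table hold them (0.0091% and 0.07%). A match describes letters in a window and is not a shown binding site. The windows printed are that of Rbpj, whose transcript fell with Dex on 2 probe sets and whose own window holds the core that its protein binds, and the only window of a member with the glucocorticoid receptor hexamer, that of Dll1, whose transcript showed no difference past the threshold. Capitals mark TGGGAA or AGAACA, or the reverse complement where the match is on the other strand. The Rbpj window lies at chr5:53590096-53590395 on the plus strand, with cores that begin 149 bases before the start on the plus strand and 65 bases before it on the minus strand. The Dll1 window lies at chr17:15375774-15376073 on the minus strand, with hexamers 44 bases before the start on the strand opposite to the gene and at base 30 of the transcript on the gene's own strand. A second window of each gene was in the table: that of Rbpj overlaps the printed one and holds 1 of the same cores, and that of Dll1 holds no hexamer.
Rbpj: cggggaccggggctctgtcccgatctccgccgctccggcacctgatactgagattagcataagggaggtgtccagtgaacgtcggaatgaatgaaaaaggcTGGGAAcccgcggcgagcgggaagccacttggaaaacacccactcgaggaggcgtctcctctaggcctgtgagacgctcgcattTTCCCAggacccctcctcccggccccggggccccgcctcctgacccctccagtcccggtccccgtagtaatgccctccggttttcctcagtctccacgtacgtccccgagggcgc
Dll1: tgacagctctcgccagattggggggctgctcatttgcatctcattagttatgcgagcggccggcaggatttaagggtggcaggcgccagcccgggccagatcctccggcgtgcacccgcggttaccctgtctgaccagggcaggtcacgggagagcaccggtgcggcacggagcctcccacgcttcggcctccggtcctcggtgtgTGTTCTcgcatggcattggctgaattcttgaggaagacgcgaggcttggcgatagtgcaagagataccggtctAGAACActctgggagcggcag

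All values are log2 signals after robust multi-array averaging (RMA), which compresses differences of dim probe sets and does not make levels of different probe sets comparable. Differences were tested with limma over all 45037 probe sets, and a difference was called at a Benjamini-Hochberg adjusted p under 0.05. The treatment itself was visible: Tsc22d3, Per1 and Fkbp5, standard glucocorticoid targets, rose with Dex by 2.82, 2.66 and 1.62 log2 units. Per1 also rose with E2, by 1.97. The Dex+E2 arrays differed most from each other, with 1249 probe sets over 0.5 log2 units apart against 92 to 305 in the other groups. Among the 17 member probe sets, 5 differed by over 0.3 between the Dex+E2 arrays, against 0 or 1 in each other group. The cell type labels name only mammary cells. The brightness of marker probe sets, given as a percentile of all probe sets, depends on the probes too. It therefore orders no transcripts and settles no cell type. The percentile was 4.11 for the epithelial gene Cdh1, 26.1 for Krt18 and 42.5 to 53.4 for Krt8. It was 77.2 for the brightest of the basal keratin Krt14 and 99.7 or above for the mesenchymal gene Vim. For the immune gene Ptprc, the endothelial gene Pecam1 and the adipocyte gene Adipoq it was 15.6 or below. Percentiles of the other markers in the list are not given here. Of 40 marker probe sets, 1 was called with Dex (0.924% of the table), with Dex+E2 (0.844%) and for the mean Dex effect (1.37%): the mesenchymal gene Col1a2 fell on 1 of its 3 probe sets by 0.80 (adjusted p = 0.0158), 1.08 (adjusted p = 0.00232) and 0.74 (adjusted p = 0.00193), while the other 2 were not called. With Dex+E2, 11 of 11 mesenchymal probe sets, from 4 genes, were below 0, with a median of -0.05, beside 20 of all 40 marker probe sets. With Dex 9 of 11 were, also with a median of -0.05, beside 27 of 40. The epithelial probe sets with Dex were below 0 in 6 of 9, with a median of -0.05 too. With E2, 8 of 11 mesenchymal probe sets were below 0, with a median of -0.04. The other marker groups with Dex+E2 were below 0 in 4 of 9 (epithelial), 3 of 11 (basal) and 2 of 4 probe sets (immune). The endothelial count was 0 of 4 and the adipocyte count 0 of 1. Probe sets of 1 gene are not independent, and the share of all probe sets below 0 was not counted. The part of cell composition in the results was not tested.

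Hes1, which encodes a repressor widely used as a readout of Notch activity, fell with Dex and was the only member called in any of the 8 comparisons. Its probe set 1418102_at read 7.13 and 7.26 on the untreated arrays and 6.55 and 6.48 on the Dex arrays. With E2 it read 6.98 and 7.07, and with Dex+E2 6.67 and 6.57. All 4 arrays with Dex were lower than all 4 without it. The groups also did not overlap in any comparison of a treatment with untreated cells. The share of all probe sets that separate in these ways was not counted, and 2 arrays can part from 2 by scatter alone. The group means were 7.20 ± 0.090 (SD, n = 2) in untreated cells, 6.52 ± 0.050 with Dex, 7.02 ± 0.066 with E2 and 6.62 ± 0.074 with both. In the order of these levels (Dex, Dex+E2, E2, untreated), none of the 3 steps between neighbours passed the threshold.

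Against untreated cells, Hes1 was 1.60-fold lower with Dex, a log2 difference of -0.68 ± 0.092 (SE, 2 arrays against 2; 95% interval -0.88 to -0.48; limma adjusted p = 0.00458). It was 1 of the 17 member probe sets called, where 0.924% of all probe sets were called (259 higher and 157 lower). By size Hes1 stood at place 92 of the 157 probe sets that fell, whose median was -0.74, and by p-value at place 52. The call depended on single arrays: it was lost without untreated replicate 2 (-0.62, adjusted p = 0.0807), without Dex replicate 1 (-0.71, adjusted p = 0.0554) and without Dex replicate 2 (-0.64, adjusted p = 0.0783). It held without untreated replicate 1 (-0.74, adjusted p = 0.0327).

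With Dex+E2, Hes1 was 1.49-fold lower than in untreated cells, at -0.58 ± 0.092 (95% interval -0.78 to -0.37; limma adjusted p = 0.0143). It was again the only 1 of the 17 member probe sets called, where the whole table gave 0.844% (212 higher and 168 lower), and it stood at place 140 of the 168 by size. This call was lost without untreated replicate 1 (-0.64, adjusted p = 0.0714), without untreated replicate 2 (-0.51, adjusted p = 0.198), without Dex+E2 replicate 2 (-0.52, adjusted p = 0.0903) and when limma was given only the arrays of the groups compared (adjusted p = 0.0898). The Dex, E2 and Dex+E2 comparisons share the untreated arrays.

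The mean Dex effect sets the 4 arrays with Dex against the 4 without it, over both states of E2. Hes1 fell by 0.54 ± 0.065 log2 units, 1.46-fold (95% interval -0.69 to -0.40; limma adjusted p = 0.00147). It was 1 of 17 member probe sets called against 1.37% of the table, and stood at place 123 of 312 by size. This call held in all 15 settings it was recomputed in, with differences from -0.57 to -0.51 and adjusted p-values up to 0.0153. Each of the 8 arrays in turn was left out among these settings.

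E2 alone left Hes1 at -0.17 ± 0.092 (95% interval -0.38 to 0.03; unadjusted p = 0.0864, limma adjusted p = 0.934), which is not past the threshold. Both E2 arrays were below both untreated arrays. Such a separation with E2 was also seen, without a call, for Notch2 1451889_at. The E2 arrays were both above the untreated arrays, again without a call, for Hey1, Jag1 1421106_at, Notch1 1418633_at and Notch2 1455556_at. The share of all probe sets that separate with E2 was not counted. In this comparison 0 of 17 member probe sets were called, where 0.0355% of all probe sets were. Adding E2 to Dex gave a Hes1 difference of 0.10 (95% interval -0.10 to 0.31; adjusted p = 0.996), with 0 of 17 members called against 0.00666% of the table. Adding Dex to E2 gave -0.40 (95% interval -0.61 to -0.20; adjusted p = 0.147, unadjusted p = 0.00123), with 0 of 17 called against 0.335%. Without Dex+E2 replicate 1 this last difference was -0.46, with Dex+E2 replicate 2, the array least correlated with the others, alone in its group.

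The test of whether the Dex effect on Hes1 differs in the presence of E2, the Dex by E2 interaction, gave 0.28 ± 0.13 (95% interval -0.01 to 0.56; unadjusted p = 0.0586, limma adjusted p = 0.881). The smaller decrease beside E2 was therefore not separated from the spread between arrays, and the interval leaves room for a difference of up to 0.56. Of the members, 0 of 17 probe sets were called in the interaction, against 0.00222% of the table. The mean E2 effect on Hes1 was -0.04 ± 0.065 (95% interval -0.18 to 0.11; adjusted p = 0.999), with 0 of 17 members called against 0.0533%.

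**Figure D1:**
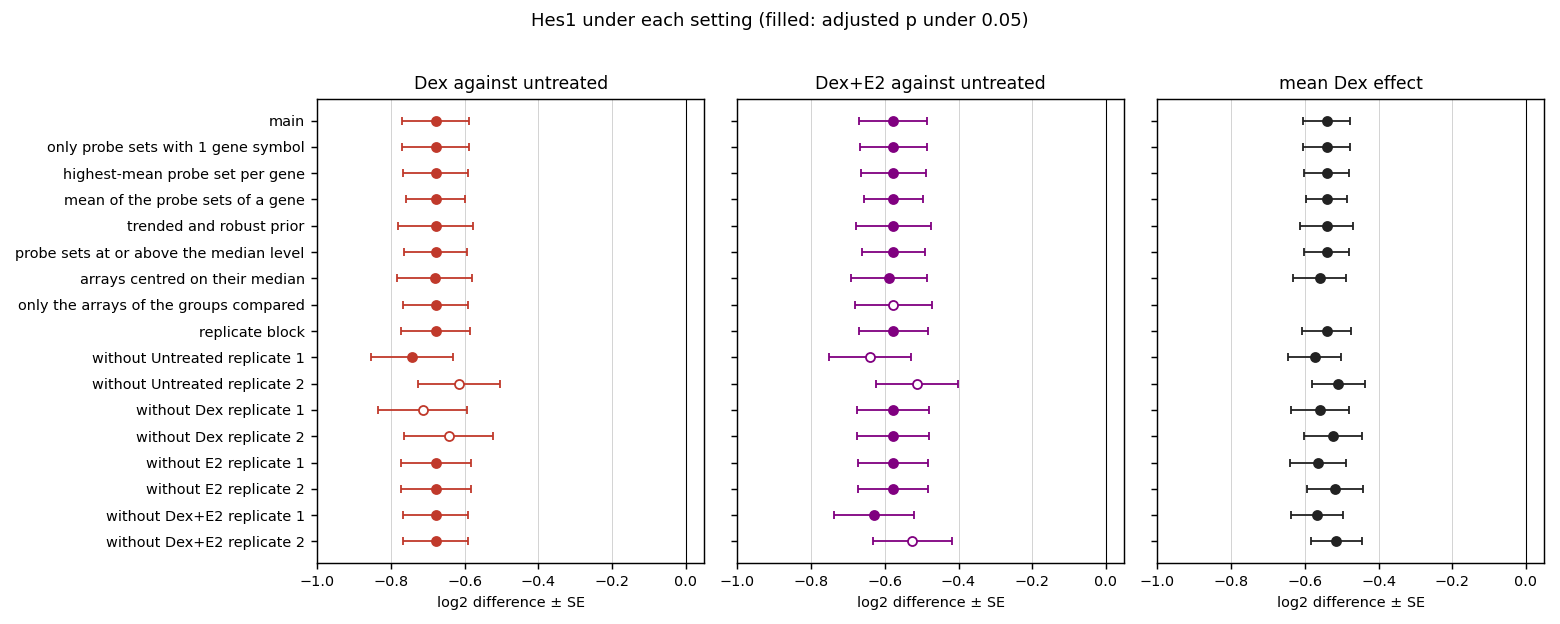
Log2 difference of Hes1 with its standard error (x axis) under each setting (y axis) for Dex against untreated, Dex+E2 against untreated and the mean Dex effect; filled points have an adjusted p under 0.05. Every point lies below 0, the mean Dex effect is filled in all its settings, and the comparisons of 2 arrays against 2 turn to open points when single arrays are left out.

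The other target repressors, Hey1 and Heyl, showed no difference past the threshold. Hey1, a repressor of the same family that pairs with Hes1, read 6.19 and 6.13 in untreated cells, 6.26 and 6.13 with Dex, 6.24 and 6.21 with E2, and 6.19 and 6.43 with Dex+E2. The second Dex+E2 array was the highest, and the Dex and untreated arrays overlapped. Its differences from untreated were 0.03 with Dex, 0.06 with E2 and 0.14 with Dex+E2.

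Heyl, the third Hey repressor, was read by 3 probe sets. Its probe set 1419302_at read 4.78 and 4.78 in untreated cells, 4.78 and 4.75 with Dex, 4.81 and 4.70 with E2, and 4.86 and 4.93 with Dex+E2. The probe set 1419303_at read 5.32 and 5.36, then 5.34 and 5.14, then 5.36 and 5.25, then 5.09 and 5.52 in the same order of groups. The probe set 1438886_at read 5.67 and 5.73, then 5.71 and 5.78, then 5.72 and 5.49, then 5.78 and 5.59. The widest gap was between the replicates of Dex+E2 on 1419303_at, where its arrays lay on both sides of the untreated pair. In that order of probe sets the differences were -0.01, -0.10 and 0.05 with Dex, -0.02, -0.03 and -0.09 with E2, and 0.11, -0.03 and -0.01 with Dex+E2.

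Nrarp, a small ankyrin-repeat protein that is induced by Notch and limits the receptor's active domain, also gave no call. Its probe set 1417985_at read 4.40 and 4.14 in untreated cells, 4.34 and 4.24 with Dex, 4.24 and 4.07 with E2, and 4.25 and 4.34 with Dex+E2. Its probe set 1417986_at read 5.74 and 5.88, then 5.77 and 5.59, then 5.78 and 5.58, then 5.51 and 5.75. The Dex arrays overlapped the untreated ones on both. The differences with Dex were 0.02 and -0.13, with E2 -0.11 and -0.13, and with Dex+E2 0.03 and -0.18. The value of -0.13 with Dex was the largest Dex difference in size among the 16 member probe sets other than that of Hes1.

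**Figure D2:**
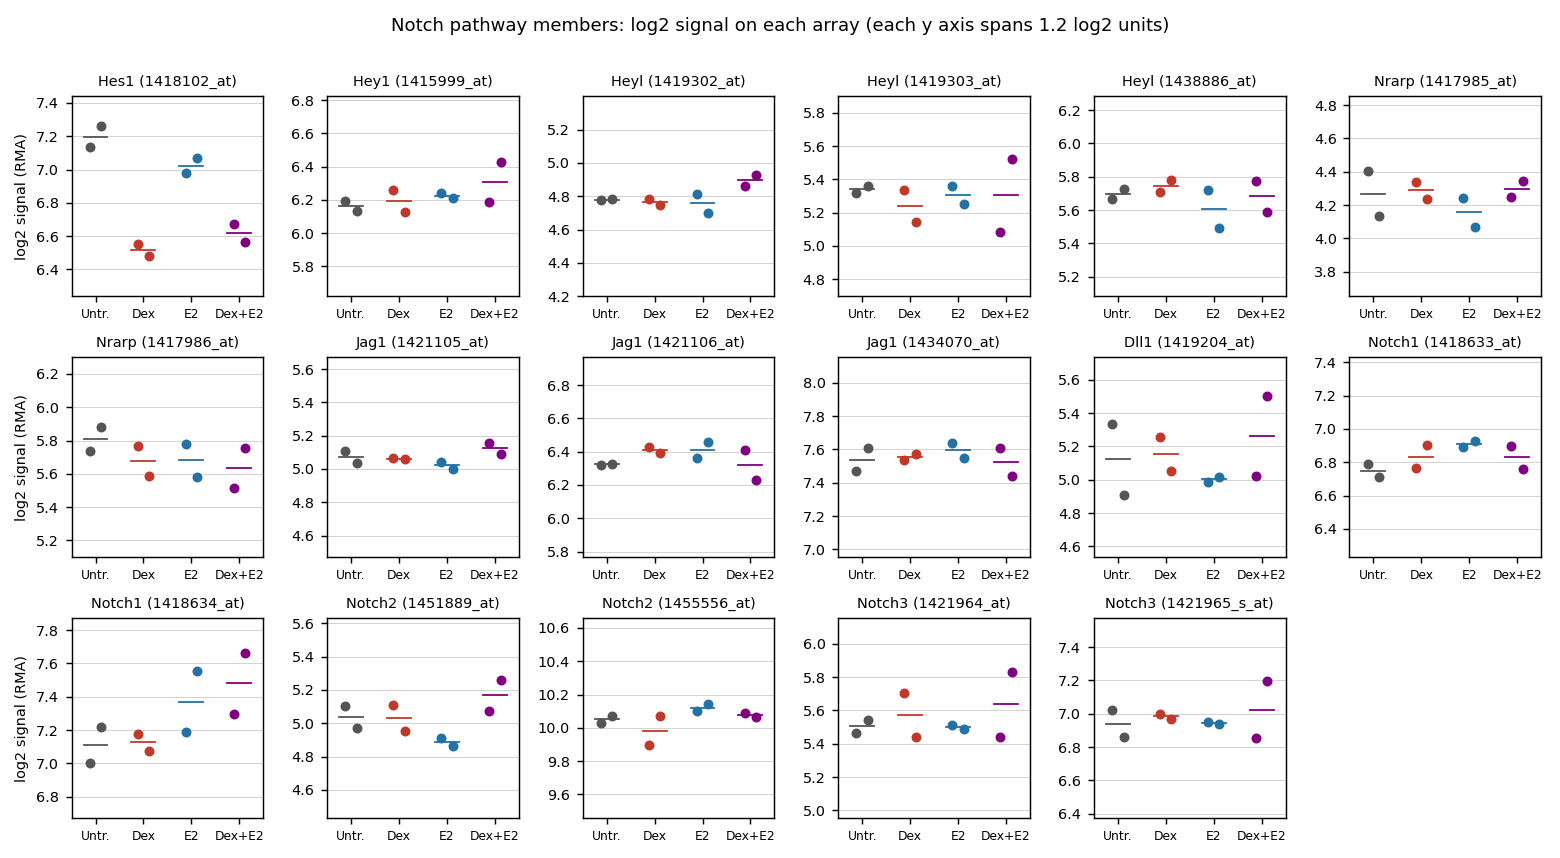
Log2 signal (y axis, RMA) of each of the 17 member probe sets on each array, by group (x axis: untreated, Dex, E2, Dex+E2); points are arrays, short lines are means of 2, and every panel spans 1.2 log2 units. Hes1 steps down in both groups with Dex, from about 7.20 to 6.52 and 6.62, while the other members show no step past the threshold.

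Of the ligand genes, Jag1, which encodes the membrane ligand Jagged1, had no probe set called of its 3. Its probe set 1434070_at read 7.47 and 7.61 in untreated cells, 7.54 and 7.58 with Dex, 7.64 and 7.55 with E2, and 7.61 and 7.44 with Dex+E2. The Dex pair lay inside the untreated pair. The probe set 1421106_at read 6.32 and 6.33, then 6.43 and 6.39, then 6.36 and 6.46, then 6.41 and 6.23, and 1421105_at read 5.11 and 5.04, then 5.07 and 5.06, then 5.04 and 5.00, then 5.15 and 5.09. The differences with Dex were 0.02, 0.08 and -0.01 in that order, and those with E2 were 0.06, 0.09 and -0.05. On 1421106_at both Dex arrays and both E2 arrays were above both untreated arrays, but the 95% intervals of both differences held 0.

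Dll1, a Delta-like ligand, was the least precisely measured member. It read 5.34 and 4.91 in untreated cells, 5.25 and 5.05 with Dex, 4.99 and 5.02 with E2, and 5.02 and 5.50 with Dex+E2. The replicates of untreated cells and of Dex+E2 lay further apart than any group means, and all groups overlapped those of untreated cells. The Dex difference was 0.03 ± 0.17, the widest standard error among the members, with a 95% interval from -0.35 to 0.40. Its window with the glucocorticoid receptor hexamer is the one printed above.

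Among the receptor genes, Notch1 had the largest difference that was not past the threshold. Its probe set 1418634_at read 7.00 and 7.22 in untreated cells, 7.18 and 7.07 with Dex, 7.19 and 7.55 with E2, and 7.29 and 7.66 with Dex+E2. The Dex arrays lay inside the untreated pair, and both Dex+E2 arrays were above it. The difference was 0.02 with Dex, 0.26 with E2 and 0.37 with Dex+E2 (95% interval 0.04 to 0.70; unadjusted p = 0.0323, limma adjusted p = 0.545). The mean E2 effect was 0.31 ± 0.11 (unadjusted p = 0.0151, adjusted p = 0.999). The other probe set of Notch1, 1418633_at, read 6.79 and 6.71, then 6.77 and 6.90, then 6.89 and 6.93, then 6.90 and 6.76, and its Dex+E2 arrays overlapped the untreated ones. It gave 0.08 with Dex, 0.16 with E2 and 0.08 with Dex+E2, so the probe sets of this receptor gave different sizes with Dex+E2. The values of 1418634_at rested on single arrays: with Dex+E2 it gave 0.19 without Dex+E2 replicate 2 and 0.56 without Dex+E2 replicate 1, and with E2 it gave 0.08 without E2 replicate 2, 0.15 without untreated replicate 1 and 0.44 without E2 replicate 1.

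Notch2 encodes a receptor close to Notch1, and its probe set 1455556_at stood at percentile 91.9 of all probe sets by mean signal. It read 10.03 and 10.07 in untreated cells, 9.90 and 10.07 with Dex, 10.10 and 10.14 with E2, and 10.09 and 10.07 with Dex+E2. Dex replicate 1 was the lowest array, and the other Dex array was level with an untreated one. The other probe set, 1451889_at, read 5.10 and 4.97, then 5.11 and 4.95, then 4.91 and 4.86, then 5.07 and 5.26. The differences with Dex were -0.07 and -0.01. On 1451889_at, Dex+E2 stood 0.28 above E2 (unadjusted p = 0.0198, limma adjusted p = 0.357), a difference that did not pass and that 1455556_at did not share.

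Notch3, a receptor best known from vascular smooth muscle, read 5.47 and 5.55 on 1421964_at in untreated cells, 5.71 and 5.44 with Dex, 5.51 and 5.49 with E2, and 5.44 and 5.83 with Dex+E2. Its probe set 1421965_s_at read 7.02 and 6.86, then 7.00 and 6.97, then 6.95 and 6.94, then 6.85 and 7.20. On both, Dex+E2 replicate 2 was the highest array and the other groups overlapped the untreated arrays. The Dex differences were 0.07 and 0.04, and those with Dex+E2 were 0.13 and 0.08.

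Over the 16 member probe sets other than that of Hes1, the limma adjusted p with Dex was 1 for each, the largest difference in size was 0.13, and the 95% intervals lay within -0.40 to 0.40. Each of these 16 intervals held 0. With E2 the largest size was 0.26 and 16 of 16 intervals held 0. With Dex+E2 it was 0.37 and 15 of 16 held 0, the exception being Notch1 1418634_at. The median difference over all 17 member probe sets was 0.02 with Dex, -0.02 with E2 and 0.05 with Dex+E2, beside 0.0014, -0.01 and 0.0035 over all probe sets. These intervals exclude, for each of the 16 with Dex, a decrease in signal as large as the 0.68 of Hes1, although they do not show that the genes were unaffected. Dll1 and some probe sets of Heyl, Nrarp, Jag1, Notch2 and Notch3 were dimmer than the median of all probe sets. RMA compresses differences of dim probe sets, so for these the intervals do not exclude such a decrease in transcript. At an unadjusted p under 0.05 there were 1 of 17 member probe sets with Dex, 0 with E2 and 2 with Dex+E2, where 5.69%, 5.42% and 8.16% of all probe sets were. There were 1 with Dex+E2 against Dex, 2 with Dex+E2 against E2, 0 in the interaction, 1 for the mean Dex effect and 1 for the mean E2 effect, where the whole table gave 4.66%, 11.8%, 5.46%, 10.4% and 4.23%. With 17 probe sets these counts are near the shares of the table.

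**Figure D3:**
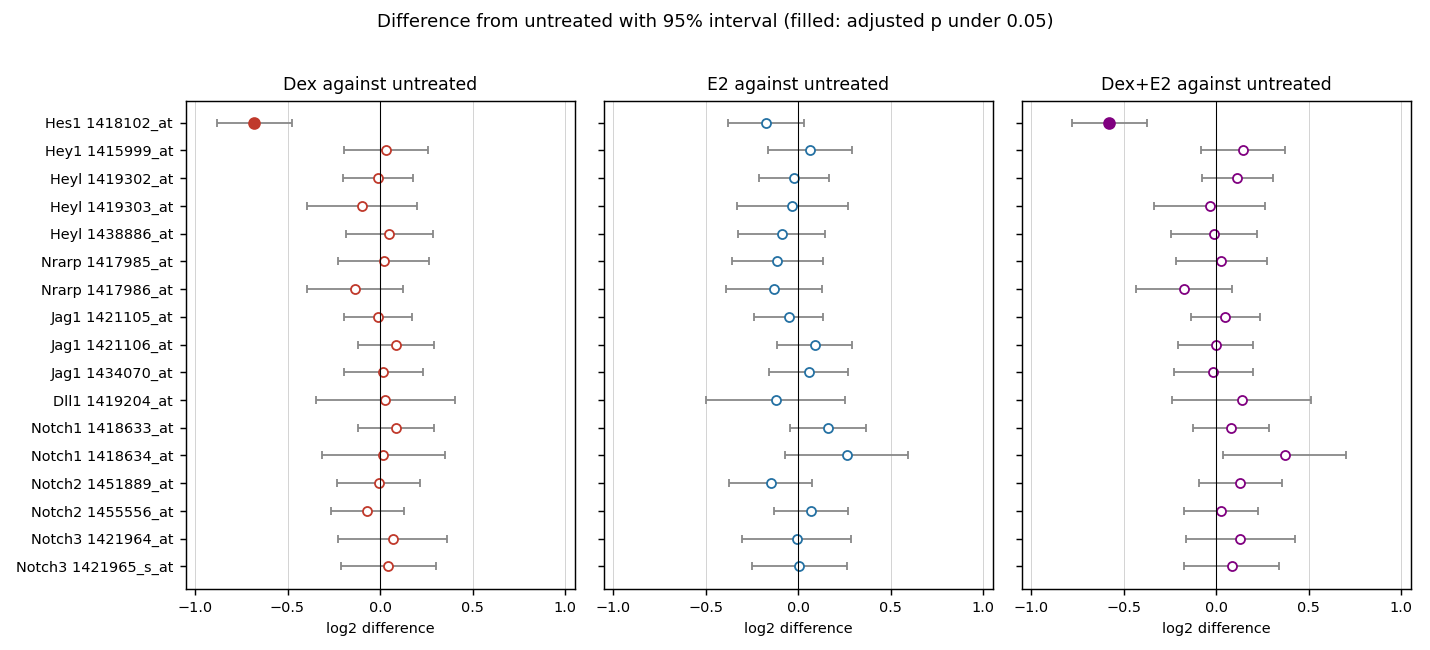
Log2 difference from untreated cells with its 95% interval (x axis) for each member probe set (y axis) with Dex, E2 and Dex+E2; filled points have a limma adjusted p under 0.05. Hes1 is the only filled point, at -0.68 with Dex and -0.58 with Dex+E2, and the other points lie between -0.18 and 0.37.

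The other genes of the pathway were followed with a list of 55, of which 49 were named by 100 probe sets. They cover Notch4, the remaining ligands, the enzymes that glycosylate and cleave receptors, ubiquitin ligases and trafficking proteins, the nuclear complex, relatives of Hes and Hey, and the corepressors that Hes proteins recruit. With Dex, 1 of the 100 probe sets was higher and 2 were lower, or 3% of them where 0.924% of the table was called, and the median difference was 0.02. They belong to Rbpj and Dlk2.

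Rbpj encodes the DNA-binding protein through which all Notch receptors act on their targets. Its probe set 1418114_at read 7.48 and 7.43 in untreated cells, 6.82 and 7.01 with Dex, 7.16 and 7.10 with E2, and 7.08 and 7.01 with Dex+E2. Its probe set 1448957_at read 9.06 and 8.94, then 8.51 and 8.42, then 8.77 and 8.57, then 8.53 and 8.46, and 1454896_at read 9.75 and 9.72, then 9.28 and 9.30, then 9.62 and 9.49, then 9.45 and 9.32. On all 3 probe sets every hormone-treated array was below both untreated arrays, a pattern whose share over all probe sets was not counted.

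With Dex, Rbpj fell on 1418114_at by 0.54 ± 0.094 (1.45-fold; limma adjusted p = 0.0228) and on 1448957_at by 0.53 ± 0.099 (adjusted p = 0.0334). The third probe set gave -0.44 and did not pass (adjusted p = 0.0572). The mean of the 3 probe sets gave -0.51 in a test of 1 value per gene (adjusted p = 0.00758). Both calls were lost without any 1 of the untreated and Dex arrays, untreated replicates 1 and 2 and Dex replicates 1 and 2, with differences from -0.64 to -0.44 and adjusted p-values from 0.0580 to 0.361. With E2 the differences were -0.33, -0.33 and -0.18, and with Dex+E2 they were -0.41, -0.50 and -0.35, none past the threshold (lowest adjusted p = 0.682 and 0.0537). The mean Dex effect passed on 1448957_at (-0.35, adjusted p = 0.0379) and 1454896_at (-0.31, adjusted p = 0.0480) and not on 1418114_at (-0.31, adjusted p = 0.0563). Those calls too were lost without any 1 of the untreated and Dex arrays, and also without E2 replicate 1 (adjusted p = 0.144 and 0.174) or Dex+E2 replicate 2 (0.0994 and 0.125), and on 1454896_at without E2 replicate 2 (0.0875). The Dex by E2 interaction of Rbpj was 0.46 on 1418114_at (unadjusted p = 0.00588, adjusted p = 0.881).

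Dlk2, a membrane protein related to the Notch ligands that lacks their receptor-binding domain, rose with Dex on 1 of its 2 probe sets. That probe set, 1450005_x_at, read 7.86 and 7.90 in untreated cells, 8.53 and 8.45 with Dex, 7.87 and 7.68 with E2, and 8.19 and 7.90 with Dex+E2. The Dex arrays stood above all others, and Dex+E2 replicate 2 lay at the untreated level. The difference with Dex was 0.61 ± 0.11 (1.52-fold; limma adjusted p = 0.0346), and it was no longer called without any 1 of the untreated and Dex arrays (adjusted p from 0.206 to 0.392). The other probe set, 1420807_a_at, read 8.30 and 8.25, then 8.85 and 8.58, then 8.29 and 8.14, then 8.54 and 8.44, and gave 0.44 with Dex (adjusted p = 0.161). With Dex+E2 the first probe set stood 0.45 below its level with Dex alone, which did not pass (unadjusted p = 0.00269, adjusted p = 0.796).

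**Figure D4:**
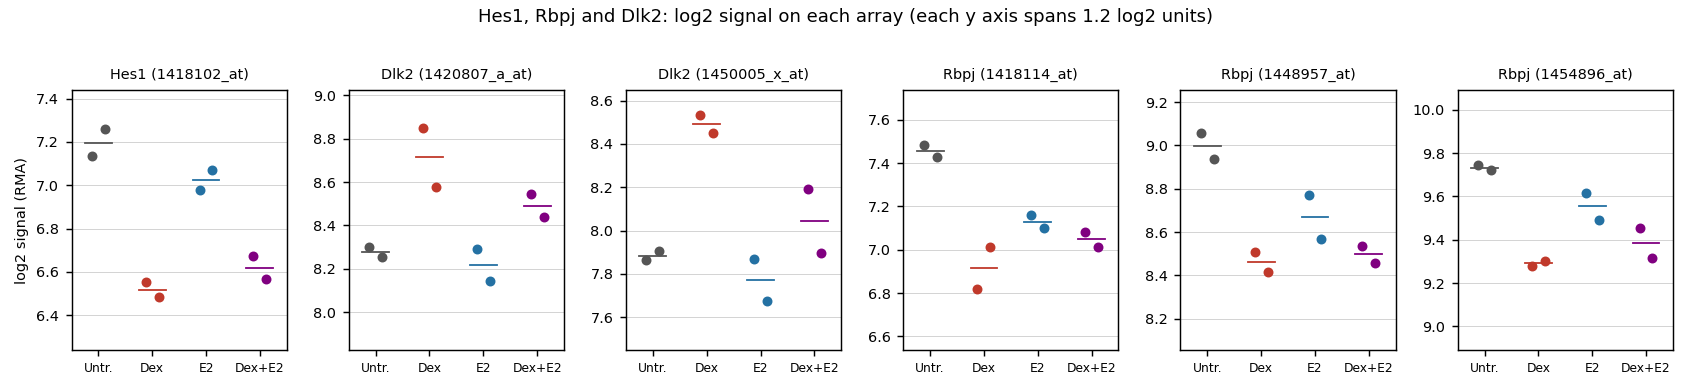
Log2 signal (y axis, RMA) of the probe sets of Hes1, Rbpj and Dlk2 on each array, by group (x axis: untreated, Dex, E2, Dex+E2); points are arrays, short lines are means of 2, and every panel spans 1.2 log2 units. Hes1 and the 3 Rbpj probe sets are lowest in the groups with Dex, and Dlk2 is highest with Dex alone.

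By role, the counts with Dex outside the members were 0 of 3 probe sets for Notch4, 1 of 9 for ligands and ligand-like proteins (Dlk2), 0 of 9 for receptor glycosylation, 0 of 18 for receptor processing, 0 of 29 for ubiquitination and trafficking, 2 of 13 for the nuclear complex (both Rbpj), 0 of 8 for relatives of Hes and Hey and 0 of 11 for the corepressors. With E2, 0 of 100 were called and 5 had an unadjusted p under 0.05, where 5.42% of the table did. The smallest p-values with E2 were those of the 2 Rbpj probe sets above and of Adam17, a membrane protease that can cleave Notch receptors, which gave 0.26 on 1421859_at (adjusted p = 0.783). With Dex+E2, 0 of 100 were called against untreated and 4 had an unadjusted p under 0.05 (8.16% of the table), the smallest 3 being those of Rbpj. With Dex+E2 against E2, 0 were called and 13 had an unadjusted p under 0.05, near the 11.8% of the table. The smallest p-values there were those of Adam17 1421859_at at -0.33 (adjusted p = 0.199), Fbxw7, whose product marks the active Notch domain for breakdown, on 1451558_at at -0.34 (adjusted p = 0.213) and the ubiquitin ligase gene Neurl1a on 1422251_at at 0.37 (adjusted p = 0.274). With Dex+E2 against Dex, in the interaction and for the mean E2 effect 0 of 100 were called, with 3, 5 and 3 at an unadjusted p under 0.05, where 4.66%, 5.46% and 4.23% of the table were. Beside Dlk2, the smallest p-values were those of Tle3 1458512_at (-0.23) and Neurl1a (0.25) with Dex+E2 against Dex, and of Hes6 1436050_x_at (0.15) and Lfng 1420643_at (-0.15) for the mean E2 effect, all with an adjusted p of 0.996 or above. In the interaction they were those of Rbpj and of Adam17 1421859_at at -0.40 (adjusted p = 0.881). For the mean Dex effect, Dlk2 was higher on 1450005_x_at (0.44, adjusted p = 0.0238, lost without any 1 of the untreated and Dex arrays or without E2 replicate 2) and 2 Rbpj probe sets were lower, and 15 of 100 had an unadjusted p under 0.05, where 10.4% of the table did.

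**Figure D5:**
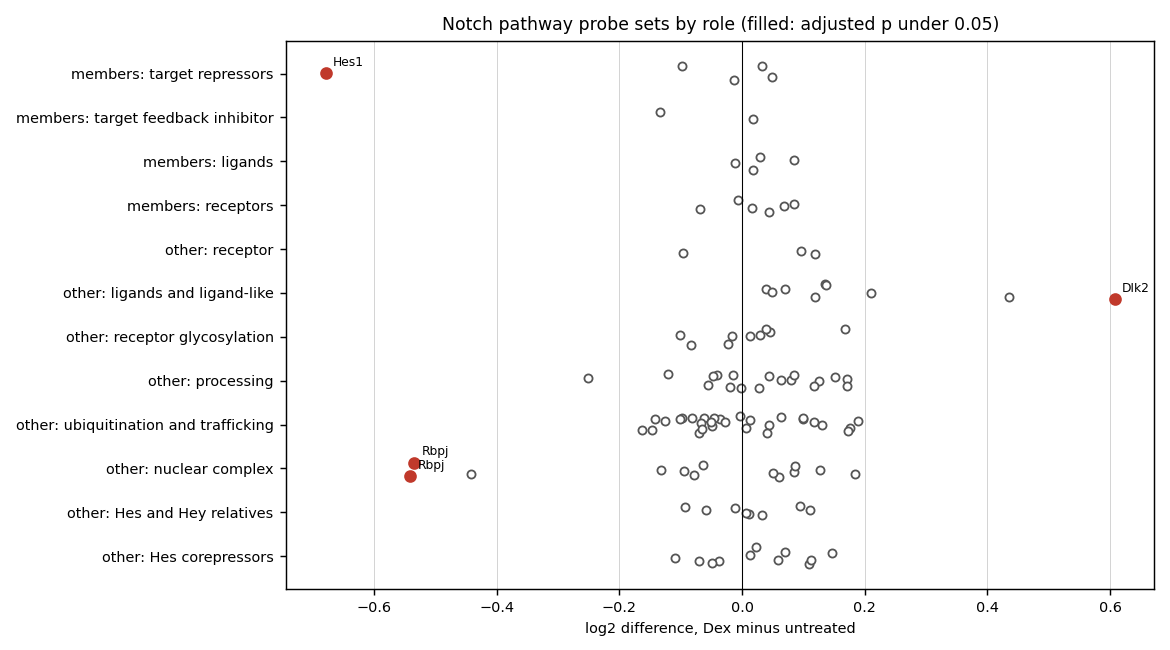
Log2 difference with Dex (x axis) of every probe set of the 9 members and of the other Notch pathway genes, grouped by role (y axis, with small vertical offsets); filled points have a limma adjusted p under 0.05. Hes1 and 2 Rbpj probe sets are filled to the left of 0 and Dlk2 to the right, at 0.61, while the third Rbpj probe set at -0.44 and the second of Dlk2 at 0.44 are open and the other open points lie between -0.25 and 0.21.

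The genes whose profile over the 8 arrays was most like that of Hes1 were found by the root mean square difference of log2 profiles, each set to 0 at the untreated mean, among 16336 genes. They were Dusp10, a MAP kinase phosphatase, at 0.0528 log2 units, Thbd, which encodes the cell-surface thrombin receptor thrombomodulin, at 0.0570, Nav3, a cytoskeletal protein, at 0.0634, Fzd7, a Wnt receptor, at 0.0653, and Ppargc1b, a transcriptional coactivator, at 0.0878. Their differences with Dex were -0.62, -0.61, -0.59, -0.66 and -0.79, all past the threshold, and with E2 -0.15, -0.24, -0.19, -0.15 and -0.20. With Dex+E2 they were -0.60, -0.52, -0.56, -0.64 and -0.61, past the threshold for all but Nav3 (adjusted p = 0.0611). Rbpj came at place 55, at 0.148. Each gene was ranked by whichever of its probe sets lay closest to Hes1, and the values are those of that probe set alone. Since these genes were selected on the same arrays, their values are a description.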

How the data were processed

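The deposited table holds log2 values of 45101 probe sets on 8 Affymetrix arrays, made by RMA in Affymetrix Expression Console, per the submitters' processing notes, with no version given. RMA subtracts background, equalises the arrays' distributions and summarises probes. Array medians ran from 5.58 to 5.66. Columns carried the samples' own identifiers, and titles gave the group and replicate. The 64 AFFX controls were left out. The platform annotation gave the names: 34945 have 1 symbol, 932 several and 9160 none. All 17 member probe sets matched RefSeq by Entrez number and 0 symbols changed.

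Differences were fitted with limma 3.58.1 (R 4.3.3) as the means of 4 groups over 8 arrays (4 residual and 6.29 prior degrees of freedom), in 8 comparisons, with Benjamini-Hochberg adjustment over 45037 probe sets. Precision is limited by the small number of arrays, with a median standard error of 0.102. The script was tested on simulated data. Values after ± are standard errors for differences and standard deviations for levels.

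The members, gene lists and tests were chosen with earlier results of these data known. Named genes are all members, the pathway genes past the threshold in each comparison (or the 3 probe sets with the smallest p), Tsc22d3, Per1 and Fkbp5 by their brightest probe set, and the 5 genes most like Hes1; predicted and clone names were left out of the last. Col1a2 was named after its values were seen. Of the lists, 6 pathway genes and 2 markers were not analysed here.

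Alternatives were 16 settings: other probe set choices, prior, filter on dim probe sets, scaling, samples fitted, replicate block, and each array left out. Deviations of same-numbered arrays correlated at 0.16 to 0.31 among untreated, Dex and E2 (3 pairs of groups over 0.1) and at -0.25 to -0.11 in the 3 pairs with Dex+E2, so the replicate numbers were not taken as pairs over the whole design.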

Additional observations from a re-analysis of the deposited data

How the results depend on the processing

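Hes1 was below 0 for Dex against untreated, Dex+E2 against untreated, Dex+E2 against E2 and the mean Dex effect in every setting they were recomputed in. It was also below 0 in every setting for E2 against untreated (-0.24 to -0.11) and the mean E2 effect (-0.068 to -0.0041). Neither of these was called in any setting, so a constant sign is not particular to the comparisons with Dex. The number of member probe sets called ranged from 0 to 1 when single arrays were left out, for Dex against untreated, for Dex+E2 against untreated and for Dex+E2 against E2. Limma on only the groups compared called 0 for Dex+E2 against untreated (Hes1 at -0.58, adjusted p = 0.0898). That setting could not be run for the interaction or mean effects, which use all groups. The Hes1 difference ran from -0.74 to -0.62 with Dex and from -0.64 to -0.51 with Dex+E2 when single arrays were left out. The other 16 member probe sets were recomputed 1816 times over comparisons and settings and passed the threshold in 0 (lowest adjusted p = 0.0896, for Notch1 1418634_at with Dex+E2, without Dex+E2 replicate 1). With the replicate block the Hes1 calls remained (adjusted p = 0.0136, 0.0341 and 0.00535 for Dex, Dex+E2 and the mean Dex effect), and Rbpj 1418114_at with Dex (0.0512) and Rbpj 1454896_at for the mean Dex effect (0.0656) were no longer called. Rbpj 1454896_at, not called with Dex, was called in 8 of 16 settings, and Rbpj 1448957_at with Dex+E2, also not called, in 6 of 14. Over all probe sets the number called ranged from 170 to 532 with Dex (416 as reported), 3 to 46 with E2 (16), 169 to 1436 with Dex+E2 (380), 0 to 168 for Dex+E2 against Dex (3), 16 to 1974 for Dex+E2 against E2 (151), 0 to 29 in the interaction (1), 349 to 1666 for the mean Dex effect (618) and 3 to 76 for the mean E2 effect (24). The highest of these for Dex+E2 against untreated, against Dex and against E2, the interaction and the mean Dex effect came without Dex+E2 replicate 1. That setting leaves Dex+E2 replicate 2, the array least correlated with the others, alone in its group. The cause of these changes was not tested, beyond the fewer arrays or probe sets that a setting has.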
